A study of Homo sapiens with 4 samples.

Results

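The genes described here are 10 small nucleolar RNA host genes, GAS5, SNHG1, SNHG3, SNHG5, SNHG6, SNHG8, SNHG12, SNHG15, SNHG16 and ZFAS1, in 2 pancreatic cancer cell lines with and without radiation. They were taken by gene name and by no limit on their values, although earlier results of these data were known. They make up 10 of the 58174 rows of the deposited table that carry a gene identifier. Each name was found in 1 row. RNA was sequenced from SW1990 cells, a line from a metastasis of a pancreatic ductal carcinoma, and from PANC-1 cells, a line from a primary pancreatic ductal carcinoma. Cells of each line were left unirradiated or treated with 10 Gy of X-rays, and each of the 4 combinations gave 1 library. The study was about the signals that tumor cells killed by radiation pass to surviving ones. The time between radiation and RNA extraction was not given in the sources used here. The lines were grown in different media, so medium and line cannot be told apart.

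The SW1990 libraries held 17939210 (unirradiated) and 18388969 (irradiated) counts, and the PANC-1 libraries 23451153 and 20154644 counts. The deposited counts are estimates derived from coverage, and FPKM is the same coverage scaled to transcript length and library size. With 1 library per group the spread between replicates is unknown. The intervals given below are Clopper-Pearson 95% intervals that treat these estimates as if they were read counts. They cover counting error in that sense only, and not error in how coverage was assigned to transcripts. No difference within a line has a replicate check. Of 7 markers of pancreatic ductal epithelium (KRT7, KRT8, KRT18, KRT19, EPCAM, MUC1 and CDH1), 7 reached an FPKM of 1 in both SW1990 libraries and in irradiated PANC-1 cells, and 6 in unirradiated PANC-1 cells, where the adhesion gene CDH1 was at 0.67. EPCAM was at 217 and 218 FPKM in SW1990 cells but at 2.28 and 2.81 in PANC-1 cells. Leukocyte, endothelial, acinar and endocrine markers stayed under an FPKM of 1 in all 4 libraries, and of 5 fibroblast markers COL1A1 was at 1.40 to 11.0 FPKM, PDGFRB at 1.56 and 1.03 FPKM in SW1990 cells, and the others under 1.

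A snoRNA host gene is a gene whose introns contain small nucleolar RNAs, short RNAs that guide the chemical modification or the processing of ribosomal and spliceosomal RNA. The host transcript is spliced, the introns are trimmed down to the snoRNAs, and the spliced exons of a noncoding host leave the nucleus and are often cleared by nonsense-mediated decay, because ribosomes meet a stop codon early. Many hosts start with a 5' terminal oligopyrimidine (TOP) tract, a C followed by pyrimidines, the feature that couples ribosomal protein mRNAs to growth signals through mTOR and LARP1. Several host transcripts are studied in cancer as long noncoding RNAs in their own right, and GAS5 was named for its accumulation in growth-arrested cells.

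The start sites are shown first, because the TOP tract is the feature by which the promoters of these genes are known. Windows of 30 bases, 15 on each side of the RefSeq start (GRCh38.p14), were read for the 8 members that RefSeq's promoter table contained. In 5 of the 8 windows a C was followed by at least 4 pyrimidines (C or T) on the transcript strand, shown in capitals below. The same run was present in 39.0% of 35116 windows of the table on the transcript strand and in 36.9% on the other strand, so a run on its own is common. A match describes letters and not a used start site. In SNHG5 and ZFAS1 the run began at the RefSeq start base itself, which for ZFAS1 lies 464 bases downstream of the start in the deposited table.
SNHG5, chr6:85678719-85678748, minus strand: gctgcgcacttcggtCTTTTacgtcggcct
SNHG8, chr4:118278747-118278776, plus strand: aaggcctcggCCTTTCacattcgggaagcg
SNHG12, chr1:28581859-28581888, minus strand: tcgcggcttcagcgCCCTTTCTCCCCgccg
SNHG16, chr17:76557749-76557778, plus strand: cgcaggggcggtctcgcgttCTTTTCgagg
ZFAS1, chr20:49278627-49278656, plus strand: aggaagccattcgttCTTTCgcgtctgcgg

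The windows of GAS5, SNHG1 and SNHG3 held no such run, which says only that these letters were not in these 30 bases. The RefSeq start of GAS5 lies 163 bases upstream of the start in the deposited table, and that of SNHG12 lies 1110 bases downstream, so more than 1 start is annotated for these genes.

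All 10 members were expressed in all 4 libraries. GAS5 was the highest member in both SW1990 libraries, at 117 FPKM without and 131 with radiation, and lay at 67.6 and 62.9 FPKM in PANC-1 cells. SNHG5 was the highest member in both PANC-1 libraries, at 96.5 and 116 FPKM, against 24.4 and 22.3 FPKM in SW1990 cells. SNHG12 was the lowest member in both PANC-1 libraries, at 7.26 and 5.15 FPKM, and was at 16.0 and 18.1 FPKM in SW1990 cells. The order of levels thus followed the line: the ranks of all 10 members were the same in both PANC-1 libraries, and 6 of the 10 had the same rank in both SW1990 libraries.

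**Figure D1:**
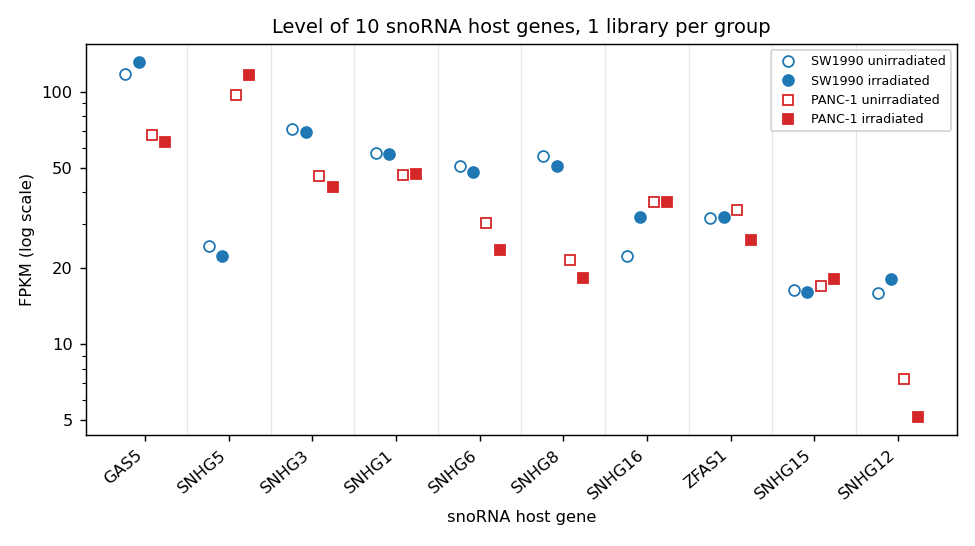
FPKM on a log scale (vertical axis) of the 10 snoRNA host genes (horizontal axis, ordered by mean level), with 1 point per library: circles for SW1990, squares for PANC-1, open for unirradiated and filled for 10 Gy. The open and filled points of a line lie close together for most genes, while the points of the lines overlap only for ZFAS1, with SNHG5 at 24.4 and 22.3 FPKM in SW1990 against 96.5 and 116 in PANC-1.

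Between these ends, SNHG3 stood at 71.1 and 69.1 FPKM in SW1990 cells and at 46.2 and 41.9 in PANC-1 cells. SNHG1, the host of a row of box C/D snoRNAs, was at 57.0 and 56.4 FPKM in SW1990 cells and at 46.7 and 47.1 in PANC-1 cells. SNHG8 was at 55.5 and 50.8 FPKM in SW1990 and at 21.6 and 18.4 in PANC-1 cells, and SNHG6 at 50.7 and 47.9 against 30.3 and 23.6. SNHG1, SNHG6 and SNHG8 were all lower in each PANC-1 library than in each SW1990 library, SNHG1 by the least. The ribosome-associated RNA ZFAS1 ranged from 25.7 to 34.0 FPKM, SNHG15 from 16.1 to 18.2, and SNHG16 from 22.4 in unirradiated SW1990 cells to 36.7 in irradiated PANC-1 cells. Neighbours in this order, such as SNHG1 and SNHG8 or SNHG8 and SNHG6 in SW1990 cells, cannot be told apart without a spread between replicates. The order also depended on the length used: with counts per kilobase of all annotated exons in place of FPKM, 2 or 3 of the 10 members kept their rank in a library.

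As a sum, the 10 members took 0.0588% of the counts of unirradiated and 0.0570% of irradiated SW1990 cells, and 0.0478% and 0.0475% in PANC-1 cells. In SW1990 cells their summed counts were 10489 without and 10432 with radiation, with a log2 fold change of -0.01 (interval -0.05 to 0.02) after TMM scaling. In PANC-1 cells they were 11160 and 9520, a log2 fold change of -0.10 (-0.14 to -0.06). As plain shares of the counts, the host genes as a group were thus nearly level before and after 10 Gy. After TMM scaling their sum was slightly lower in irradiated PANC-1 cells.

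In SW1990 cells, none of the 10 host genes differed 2-fold or 1.5-fold between the irradiated and the unirradiated library. Of all 15731 genes that reached an FPKM of 1 in either library, 9.05% differed by more than 2-fold and 19.9% by more than 1.5-fold. Among genes at an FPKM of 5 or more in both, a background closer to the members' level, the shares were 2.07% and 7.54%. The members' log2 fold changes had a median of -0.03, beside -0.01 over all genes tested, with 5 higher (49.3% of all genes) and 5 lower. Without SNHG3, which shares its start with another gene, this median was 0.01.

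SNHG16 had the largest difference of the members in SW1990 cells. It was counted 906 times without and 1228 times with radiation, for a log2 fold change of 0.43 (interval 0.31 to 0.56). GAS5 went from 2092 to 2378 counts, a log2 fold change of 0.18 (0.09 to 0.26). Both were higher in the irradiated library by more than counting error.

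SNHG3 and SNHG6 lay on the other side. SNHG3 was counted 3290 times without and 2764 times with radiation (log2 fold change -0.26, interval -0.33 to -0.18), and SNHG6 482 and 413 times (-0.23, -0.42 to -0.04). From the FPKM values the difference of SNHG3 was -0.04, because the transcript length implied by its count and FPKM was 2101 bases without and 1782 with radiation. Both were lower in the irradiated library by counts, and SNHG6 was at -0.08 by FPKM.

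The other 6 members had intervals that included 0 in SW1990 cells. SNHG1 was counted 1206 and 1148 times, SNHG5 339 and 343 times, and SNHG8 682 and 648 times. SNHG12 was counted 396 and 422 times, SNHG15 561 and 535 times, and ZFAS1 535 and 553 times. These counts differed between the libraries by no more than counting error. An interval without 0 was seen for 4 of the 10 members, against 56.8% of genes with at least 100 counts in both libraries.

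In PANC-1 cells, none of the 10 members differed by 2-fold or by 1.5-fold either, although 2 came close. The background was 8.68% of 15159 genes past 2-fold and 21.4% past 1.5-fold. Among genes at an FPKM of 5 or more in both libraries the shares were 1.94% and 9.38%. The members' median log2 fold change was -0.19 (-0.10 with plain totals and -0.12 by FPKM). Over all genes tested the median was -0.02 (0.07 with plain totals and 0.07 by FPKM). Of the 10 members, 8 were lower in the irradiated library, against 51.7% of all genes. With libraries scaled by plain totals 7 were lower (SNHG16 turned), and from FPKM values 6 (SNHG1 and SNHG16 turned), while 8 lay below the median of all genes under each of these scalings.

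SNHG6 had the most negative log2 fold change by counts of the members in PANC-1 cells, with 428 counts without and 261 with radiation and a log2 fold change of -0.58 (interval -0.81 to -0.36). It lay just inside the 1.5-fold limit and passed it with DESeq2's size factors, at -0.61, but was at -0.49 with plain totals and -0.36 by FPKM. SNHG12 went from 244 to 163 counts (-0.45, -0.75 to -0.16) and ZFAS1 from 718 to 486 counts (-0.43, -0.60 to -0.26). SNHG8 went from 373 to 272 counts (-0.32, -0.56 to -0.10), SNHG3 from 2663 to 2113 (-0.20, -0.29 to -0.12) and GAS5 from 1505 to 1222 (-0.17, -0.28 to -0.06). All 6 were lower by more than counting error (5 with plain totals, where the interval of GAS5 was -0.19 to 0.03), and 36% of genes with at least 100 counts in both libraries were.

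SNHG15 went the other way, from 501 counts without to 668 with radiation in PANC-1 cells, a log2 fold change of 0.54 (interval 0.38 to 0.72) by counts. Its FPKM was 16.96 without and 18.2 with radiation, a log2 difference of 0.10. The transcript length implied by its count and FPKM was 1020 bases in unirradiated PANC-1 cells, and 1465, 1553 and 1485 bases in irradiated PANC-1, unirradiated SW1990 and irradiated SW1990 cells. SNHG15 was the only member whose implied length differed by more than 1.3-fold between the PANC-1 libraries, a difference seen in 8.48% of genes with at least 100 counts in both. GENCODE release 29 lists 10 transcripts of SNHG15, from 505 to 3116 bases long. By counts SNHG15 was thus higher after radiation, whereas per length it was nearly level.

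SNHG5 was counted 1585 times without and 1579 times with radiation in PANC-1 cells, which after scaling was a log2 fold change of 0.12 (interval 0.02 to 0.23). SNHG1, with 1172 and 990 counts, and SNHG16, with 1971 and 1766 counts, had intervals that included 0. With DESeq2 size factors the interval of SNHG5 included 0 (-0.0058 to 0.20) and that of SNHG1 did not (-0.27 to -0.02). An interval without 0 was seen for 8 of the 10 members (7 with plain totals), against 64.6% of genes with at least 100 counts in both libraries.

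**Figure D2:**
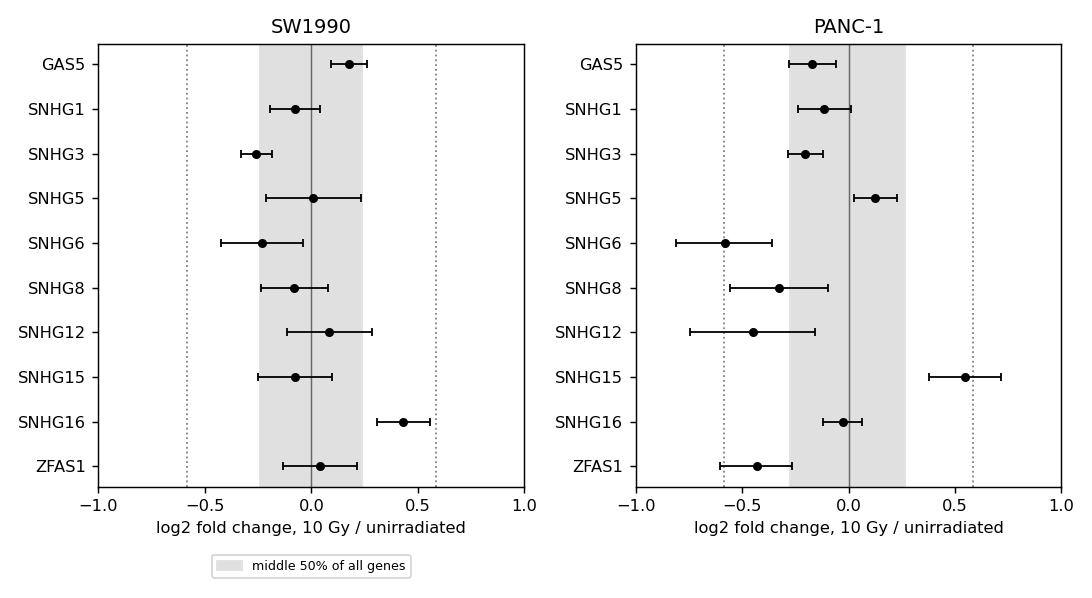
Log2 fold change of counts, 10 Gy against unirradiated (horizontal axis), of the 10 host genes in SW1990 (left) and PANC-1 (right), with points for 1 pair of libraries each and bars for the 95% counting interval. Dotted lines mark 1.5-fold and the grey band the middle 50% of all genes tested: no member passes 1.5-fold, and in PANC-1 SNHG6 (-0.58), SNHG12, ZFAS1 and SNHG8 lie left of the band and SNHG15 (0.54) right of it.

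Set side by side, the responses of most members were higher in SW1990 than in PANC-1 cells. The log2 fold change in SW1990 minus that in PANC-1 cells was above 0 for 7 of the 10 members, against 51.9% of 13228 genes tested in both lines, with a median of 0.30 beside 0.02 over all genes. With plain totals it was above 0 for 6 members (SNHG1 turned) with a median of 0.18, and from FPKM values SNHG1 and SNHG3 turned and the median was 0.19. The difference was 0.54 for SNHG12, 0.47 for ZFAS1, 0.46 for SNHG16, 0.35 for SNHG6 and GAS5, and -0.62 for SNHG15, or -0.13 by FPKM. GAS5 was the only member with intervals on opposite sides of 0 after TMM scaling, higher after radiation in SW1990 (0.18) and lower in PANC-1 cells (-0.17). Such intervals were seen in 15.7% of 9991 genes with at least 100 counts in all 4 libraries. With plain totals GAS5 was at -0.08 in PANC-1 cells, with an interval that included 0. With 1 library per line and treatment these differences could not be tested.

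A joint fit of the 4 libraries by edgeR's quasi-likelihood test took the lines as the 2 replicates of each treatment, which leaves 1 residual degree of freedom. For radiation, 0 of the 10 members and 0% of 18180 genes had a Benjamini-Hochberg adjusted p under 0.05 in edgeR. At an unadjusted p under 0.05 there were 0 members and 833 genes (4.58%). DESeq2's Wald test gave 39 genes and limma on FPKM values gave 1, none of them a member, but DESeq2 gave no adjusted p for SNHG6, SNHG8 and SNHG12. Among the members the unadjusted p in edgeR ran from 0.129 for SNHG6 (log2 fold change -0.39) to 0.903 for GAS5 (0.02). The common biological coefficient of variation of this fit was 0.218.

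More members differed between the lines than with radiation, as did more genes in all. In the unirradiated libraries, 2 of 10 members differed by more than 2-fold and 5 by more than 1.5-fold between SW1990 and PANC-1 cells. The background for this comparison was high, with 41.6% of 16626 genes past 2-fold and 60.3% past 1.5-fold, and 19.9% and 42.8% among genes at an FPKM of 5 or more in both. The members' median log2 difference, SW1990 against PANC-1, was 0.34, beside -0.01 over all genes, with 7 members (49.6% of all genes) higher in SW1990 and 3 higher in PANC-1. Plain totals moved the median of all genes by 0.21 and that of the members to 0.55, and FPKM values turned SNHG15 and left 6 members higher in SW1990.

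SNHG5, the host of SNORD50B, stood out among them. It was counted 339 times in unirradiated SW1990 and 1585 times in unirradiated PANC-1 cells, 4.15-fold more in PANC-1 after scaling (log2 difference -2.05, interval -2.23 to -1.88). In irradiated cells they were 343 and 1579. The counts of the lines did not overlap. In the fit of all 4 libraries the log2 difference was -2.11 with an adjusted p of 0.00162 (edgeR). For this difference and those below, the fit took the treatments as the replicates of each line. No line had a true replicate.

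SNHG8 and SNHG12 were higher in SW1990 cells. SNHG8 was counted 682 and 648 times in SW1990 and 373 and 272 times in PANC-1 cells, a log2 difference of 1.04 (interval 0.86 to 1.23) between the unirradiated libraries. In the fit it was 1.17, with an adjusted p of 0.0102 in edgeR. SNHG12 was counted 396 and 422 times against 244 and 163 times, a log2 difference of 0.87 (0.64 to 1.11), and 1.14 in the fit, with an adjusted p of 0.0231 in edgeR. For both genes each SW1990 library lay above each PANC-1 library.

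GAS5 and SNHG3 were also higher in SW1990 and SNHG16 was higher in PANC-1 cells. The log2 difference between the unirradiated libraries was 0.65 for GAS5, and 0.82 with an adjusted p of 0.0171 in the edgeR fit. For SNHG3 it was 0.48, and 0.45 with an adjusted p of 0.0496 in the edgeR fit. For SNHG16, counted 906 and 1228 times in SW1990 and 1971 and 1766 times in PANC-1 cells, it was -0.95, and -0.71 with an adjusted p of 0.0327 in the edgeR fit. In total 6 of the 10 members passed an adjusted p of 0.05 in edgeR, against 43.6% of 18180 genes.

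The other 4 members did not pass. SNHG6 had a log2 difference of 0.52 (adjusted p = 0.109, edgeR) and SNHG1 of 0.23 (0.251). For SNHG15 it was 0.03 (adjusted p = 0.930, edgeR) and for ZFAS1 -0.01 (0.965). Without a filter on low counts 4 members passed, SNHG3 and SNHG16 no longer among them. Without the treatment as a block 5 passed, SNHG3 no longer among them (adjusted p = 0.0613, edgeR). By limma on FPKM values 6 passed, SNHG6 among them (0.86, adjusted p = 0.00693, limma) and SNHG16 not (adjusted p = 0.0969, limma).

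**Figure D3:**
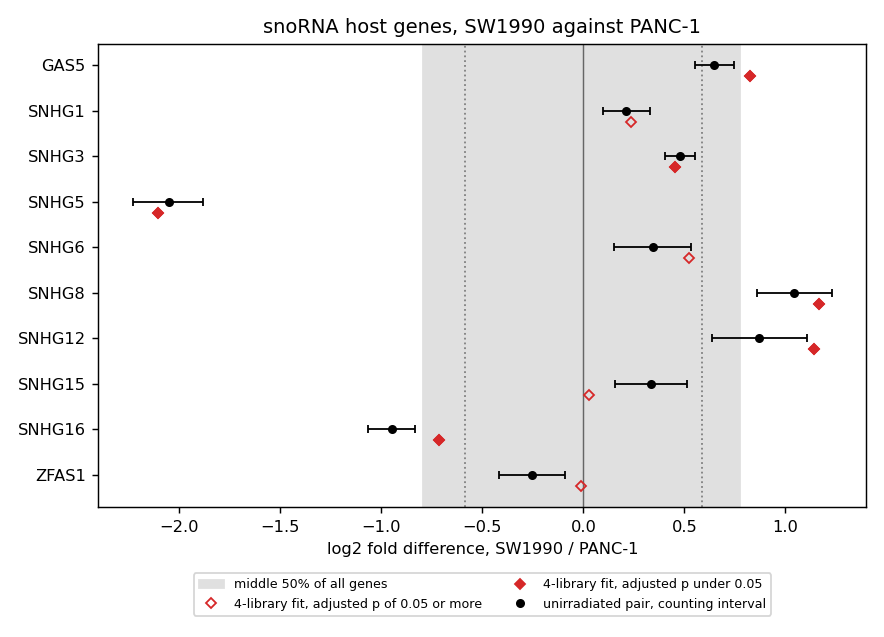
Log2 difference between the lines, SW1990 against PANC-1 (horizontal axis, positive means higher in SW1990), of the 10 host genes, as black points with 95% counting intervals for the unirradiated pair and as red diamonds for the fit of all 4 libraries, filled where the edgeR adjusted p was under 0.05. The grey band is the middle 50% of all genes: SNHG5 (-2.05) and SNHG16 (-0.95) lie left of it, SNHG8 (1.04) and SNHG12 (0.87) right of it, and the other black points lie inside the band.

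The snoRNAs themselves were read where the table had a row for them. Inside 9 of the 10 members, on the same strand, the table had 24 snoRNA rows, and snoRNAs of GAS5 were not analysed here. Of the 24 rows, 8 were listed at exactly 1 in every library, which in these coverage-based counts can stand for almost nothing, and 14 reached 10 counts in at least 1 library. The protocol names an mRNA kit, whereas the records of the samples say that ribosomal RNA was depleted, and RNAs of this length are poorly kept in such libraries, so these counts may not follow snoRNA levels. They may also come from the introns of the host transcripts, which cannot be told apart from them.

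The sequences of the 3 H/ACA rows with the most counts are shown first. SNORA73A and SNORA73B are H/ACA snoRNAs inside SNHG3, known as U17 and needed for cutting the ribosomal RNA precursor rather than for modifying it. SNORA24 is the H/ACA snoRNA of SNHG8. Capitals mark the ACA box, 3 bases from the 3' end in all 3 of them. SNORA73A and SNORA73B were identical in 192 of 206 aligned columns (93.2%), so reads could be split between them and their rows are uncertain as single values. All are in GRCh38 coordinates.
SNORA73A, chr1:28507366-28507571, plus strand: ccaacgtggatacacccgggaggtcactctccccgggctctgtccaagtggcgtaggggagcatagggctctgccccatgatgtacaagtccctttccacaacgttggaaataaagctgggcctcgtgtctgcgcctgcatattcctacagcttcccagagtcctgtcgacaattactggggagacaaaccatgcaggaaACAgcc
SNORA73B, chr1:28508559-28508762, plus strand: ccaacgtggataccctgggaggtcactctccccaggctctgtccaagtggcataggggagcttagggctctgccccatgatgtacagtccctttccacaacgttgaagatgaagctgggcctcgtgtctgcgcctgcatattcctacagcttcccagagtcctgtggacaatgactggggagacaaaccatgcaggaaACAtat
SNORA24, chr4:118279190-118279320, plus strand: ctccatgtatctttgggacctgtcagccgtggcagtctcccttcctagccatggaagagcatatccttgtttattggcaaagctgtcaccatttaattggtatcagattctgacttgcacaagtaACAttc

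The box C/D snoRNAs, which guide 2'-O-methylation, are shorter. Those shown are not all the best counted: a SNORD22 row in SNHG1 had more counts in every library than SNORD99 or SNORD12B. SNORD26 lies in SNHG1, SNORD99 in SNHG12 and SNORD12B in ZFAS1, and capitals mark the ATGA nearest to the 5' end, the core letters of box C, and the last CTGA, the letters of box D.
SNORD26, chr11:62855292-62855366, minus strand: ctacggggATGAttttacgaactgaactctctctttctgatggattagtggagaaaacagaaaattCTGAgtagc
SNORD99, chr1:28578749-28578822, minus strand: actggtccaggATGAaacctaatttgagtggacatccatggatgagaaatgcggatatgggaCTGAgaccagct
SNORD12B, chr20:49280319-49280409, plus strand: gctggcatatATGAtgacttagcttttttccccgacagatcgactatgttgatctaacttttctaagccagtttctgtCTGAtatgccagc

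SNORA73A was counted 1177 times without and 1119 times with radiation in SW1990 cells, and 1490 and 1475 times in PANC-1 cells. SNORA73B was counted 897 and 990 times, and 1276 and 1303 times. Summed, SNORA73 counts had a log2 fold change of 0.02 (interval -0.07 to 0.11) in SW1990 and 0.14 (0.06 to 0.21) in PANC-1 cells, while those of the host SNHG3 were -0.26 and -0.20. Relative to the counts of SNHG3, those of SNORA73 came to 63.0% without and 76.3% with radiation in SW1990 cells, and to 104% and 131% in PANC-1 cells. By FPKM, summed SNORA73 was at 462 and 461 in SW1990 cells and SNHG3 at 71.1 and 69.1, so there the shift was hardly seen. In PANC-1 cells SNORA73 was at 468 and 544 FPKM and SNHG3 at 46.2 and 41.9.

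The gene RCC1, which encodes the nucleotide exchange factor of the GTPase Ran and can be transcribed together with SNHG3, starts 37 bases upstream of SNHG3 in the table and shares its strand. RCC1 was counted 2696 times without and 3792 times with radiation in SW1990 cells (log2 fold change 0.49, interval 0.41 to 0.56), and 1736 and 2068 times in PANC-1 cells (0.38, 0.29 to 0.48). SNHG3 and RCC1 summed went from 5986 to 6556 counts in SW1990 (0.12, 0.07 to 0.18) and from 4399 to 4181 in PANC-1 cells (0.06, -0.0045 to 0.12). By counts RCC1 was higher and SNHG3 lower in the irradiated library of each line. By FPKM in SW1990 cells RCC1 was at 76.8 and 81.4 (log2 difference 0.08) and SNHG3 at -0.04, and whether reads of shared exons were moved between the 2 rows was not tested.

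**Figure D4:**
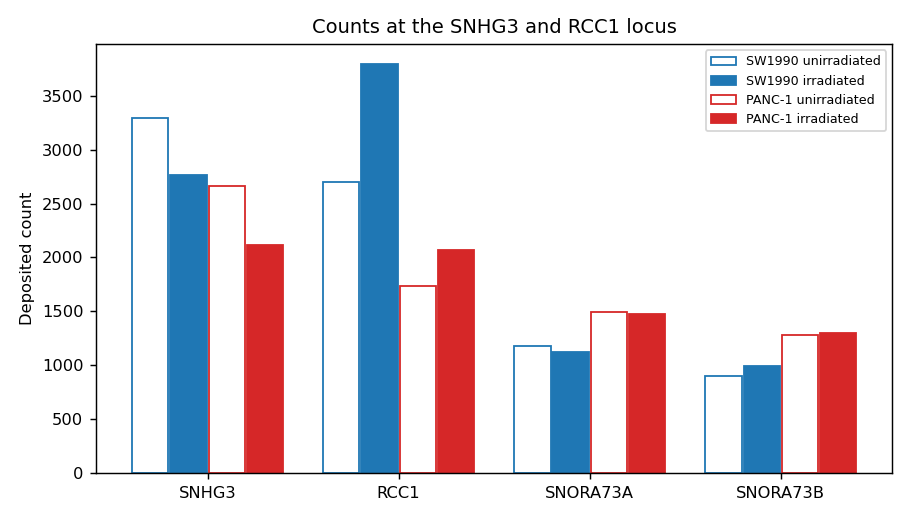
Deposited counts (vertical axis, from 0) of SNHG3, RCC1 and the snoRNA rows SNORA73A and SNORA73B (horizontal axis) in the 4 libraries, with 1 bar per library, open for unirradiated and filled for 10 Gy. The SNHG3 bars fall and the RCC1 bars rise from the open to the filled bar in both lines, from 3290 to 2764 and from 2696 to 3792 in SW1990, while the SNORA73 bars stay nearly level within a line. By FPKM the SW1990 differences were 0.08 for RCC1 and -0.04 for SNHG3.

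Among the smaller rows, SNORA24 in SNHG8 was counted 94 and 87 times in SW1990 and 40 and 31 times in PANC-1 cells, higher in SW1990 as its host was. In SNHG1, SNORD26 was counted 64, 59, 34 and 27 times in unirradiated and irradiated SW1990 and unirradiated and irradiated PANC-1 cells. In the same order, the better counted SNORD22 row was at 66, 45, 30 and 24, and another SNORD22 row at 3, 4, 1 and 3. SNORD30 was counted 31, 34, 14 and 12 times, and SNORD27 33, 30, 17 and 1 times. SNORD26, the better counted SNORD22 row, SNORD30 and SNORD27 had higher counts in each SW1990 library than in each PANC-1 library. SNHG1 itself differed between the unirradiated lines by 0.21 (log2).

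In ZFAS1, SNORD12B was counted between 19 and 24 times and SNORD12C between 16 and 29 times in a library, and SNORD12 26 times in unirradiated SW1990 cells and listed at 1 in the others. In SNHG12, SNORD99 was counted 26, 22, 14 and 16 times, in the order above. SNORA44 was counted 52 times in unirradiated SW1990 and 34 times in irradiated PANC-1 cells and listed at 1 in the other two, and SNORA61 reached 15 counts in unirradiated PANC-1 cells alone. SNORD87 in SNHG6 was counted 32, 13, 22 and 16 times. SNORA44, SNORA61 and SNORD12 were thus listed at 1 in at least 2 of the 4 libraries.

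Some members share their locus with other genes, and the sources used here do not say whether the counts used strand. ZFAS1 (chromosome 20, 49278178 to 49295738, plus strand) overlaps ZNFX1, which lies on the other strand, head to head at their starts. ZNFX1, an antiviral helicase gene, was counted 1646 and 2426 times in SW1990 cells (log2 fold change 0.55, interval 0.46 to 0.64) and 1502 and 2607 times in PANC-1 cells (0.93, 0.83 to 1.02). ZFAS1 was 0.04 and -0.43, so the partners did not move together. GAS5 (chromosome 1, 173863900 to 173868882, minus strand) overlaps ZBTB37 on the other strand, which was counted 816, 705, 1643 and 1583 times.

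SNHG12 overlaps TRNAU1AP on the other strand at their 3' ends, which was counted 299, 268, 563 and 547 times. SNHG16 overlaps AC015802.6, also on the other strand, which was counted 52, 67, 32 and 2 times. SNHG6 overlaps MCMDC2 on the other strand, which was counted 12 to 15 times in a library. Besides ZFAS1 and GAS5, positions on GRCh38 are as follows for 7 members. SNHG1 lies at chromosome 11, 62851988 to 62855914, and SNHG5 at chromosome 6, 85660950 to 85678736. On chromosome 1, SNHG3 lies at 28505980 to 28510892 and SNHG12 at 28578538 to 28582983. SNHG8 lies at chromosome 4, 118278709 to 118279823, and SNHG15 at chromosome 7, 44983023 to 44986961. SNHG16 lies at chromosome 17, 76557766 to 76565348. GENCODE release 29 lists 29 transcripts for GAS5, 25 for SNHG1, 23 for SNHG5 and 17 for SNHG12, and 3 for SNHG3. In SNHG1 exons of some transcript cover 95.6% of the gene, and in GAS5 72.9%, so reads from unspliced or intron-retaining RNA cannot be told apart from spliced host RNA in these rows.

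To place the members among their kind, 6 lists of related genes were read in the same way, as counts and medians without a test. The medians and the genes past a limit are by counts after TMM scaling, and were not recomputed by FPKM. In PANC-1 cells some listed genes had the other sign by FPKM, and the median of all genes was -0.02 by counts and 0.07 by FPKM. Of the other noncoding snoRNA hosts, 3 of 17 tested in SW1990 and 2 of 18 in PANC-1 cells were past 1.5-fold (backgrounds 19.9% and 21.4%), with medians of -0.05 in both lines. SNHG20 was the 1 gene of the list past 2-fold. It went from 452 to 156 counts in SW1990 cells (log2 fold change -1.54, interval -1.81 to -1.28) and from 267 to 463 counts in PANC-1 cells (0.92, 0.70 to 1.15), so it was lower after radiation in one line and higher in the other. SNHG20 overlaps SEC14L1 and a small Cajal body RNA, SCARNA16, in the table. SNHG10 was at 0.65 and -0.36, and SNHG25, with at most 49 counts, at 0.39 and 0.65 by counts but -0.71 and -0.45 by FPKM.

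Protein-coding snoRNA hosts outside the ribosome, such as translation factors and chaperones, had medians of -0.04 in SW1990 and -0.03 in PANC-1 cells, with 2 and 1 of 29 past 1.5-fold. EIF4A1, the RNA helicase of cap-dependent translation, went from 5569 to 2905 counts in SW1990 (log2 fold change -0.95) and from 6638 to 4667 in PANC-1 cells (-0.38). HSPA9, a mitochondrial chaperone, was at -0.18 and -0.70.

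Ribosomal protein genes that host snoRNAs, a class known for TOP tracts, had medians of -0.05 in SW1990 and -0.17 in PANC-1 cells, where 15 of 22 were lower (51.7% of all genes) and 4 were past 1.5-fold lower (10.1% of all genes). RPL23A went from 8532 to 4784 counts in PANC-1 cells (log2 fold change -0.70), while RPS3 went from 10085 to 13806 (0.58). In SW1990 cells RPL23A was at -0.15 and RPS3 at 0.42, and none of the 22 was past 1.5-fold.

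The proteins that bind and assemble snoRNAs had medians of -0.03 and -0.15, with 1 and 2 of 19 past 1.5-fold. SNU13, which binds the kink-turn of box C/D snoRNAs, went from 1308 to 1985 counts in SW1990 (log2 fold change 0.59) and from 671 to 1106 in PANC-1 cells (0.85), higher after radiation in both lines. The assembly factor ZNHIT6 was at -0.07 and 0.74, and ZNHIT3 at -0.22 (-0.61 by FPKM) and 0.48.

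Nonsense-mediated decay and exon junction factors had medians of -0.05 and -0.22, with 2 and 2 of 17 past 1.5-fold. The exon junction proteins MAGOH and RBM8A were lower by counts in both lines, MAGOH at -0.27 and -0.96 and RBM8A at -0.47 and -0.68, but RBM8A was at 0.54 by FPKM in PANC-1 cells. SMG8 went from 214 to 778 counts in SW1990 cells, where its log2 fold change was 1.85 by counts and 0.83 by FPKM, and was at -0.20 in PANC-1 cells. Of the 11 regulators of TOP mRNA translation, with medians of -0.05 and -0.14, 1 in SW1990 and 0 in PANC-1 cells were past 1.5-fold. This was CNBP, an RNA-binding protein, at -0.88 and -0.38. EIF4EBP1, the translation repressor under mTOR control, was at -0.31 and -0.55, and the S6 kinase gene RPS6KB1 at 0.23 (-0.27 by FPKM) and -0.52.

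**Figure D5:**
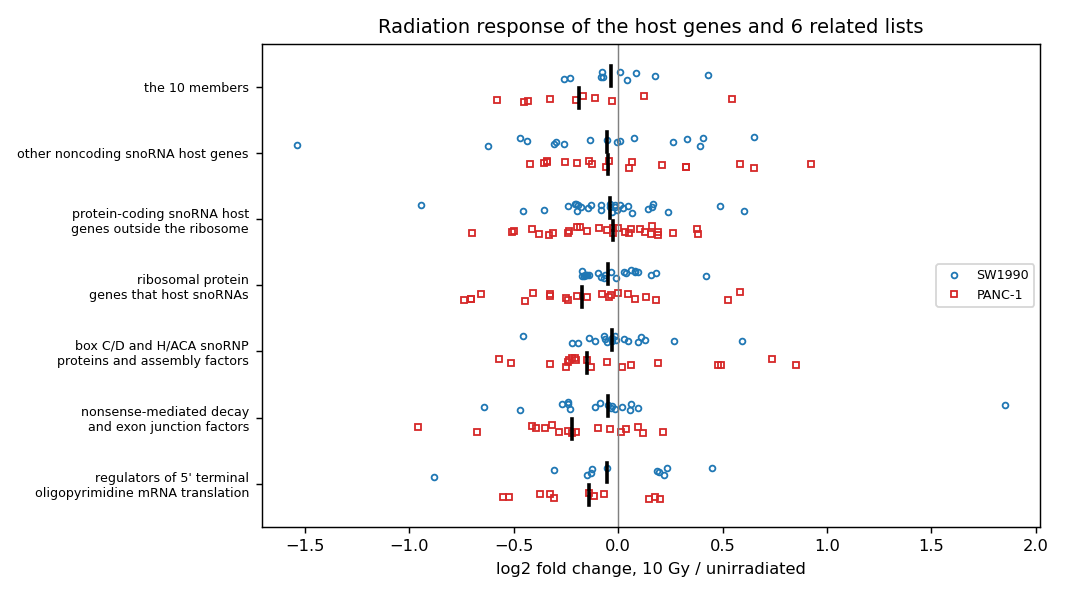
Log2 fold change, 10 Gy against unirradiated (horizontal axis), of the 10 members and of the tested genes of 6 related lists (vertical axis), with blue circles for SW1990, red squares for PANC-1 and black bars for medians. The medians, by counts after TMM scaling, lie near 0 in SW1990 (-0.03 to -0.05) and between -0.03 and -0.22 in PANC-1. SNHG20 (-1.54) and SMG8 (1.85) in SW1990 lie farthest out.

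The genes most like the members across the 4 libraries were taken as those with at least 100 counts in every library whose centred log2 CPM profile lay nearest to the members' mean profile. Among 9981 candidates these were RFX7, CENPQ, CLPTM1, NDUFAF6 and NPIPB3. RFX7 was counted 1708, 1747, 1849 and 1483 times, in the order above, at a Euclidean distance of 0.03. The members themselves lay between 0.10 (SNHG1) and 2.27 (SNHG5) from this mean, so these genes resemble an average that no member follows as closely. The mean profile rests on only 4 libraries, and how many genes lie close to it was not counted.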

How the data were processed

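The members, the lists and the tests were chosen with earlier results of these data known. According to the submitters' processing notes, the reads were checked with FastQC 0.11.2, trimmed with Trimmomatic 0.36, aligned to GRCh38 with HISAT2 2.0 and quantified with StringTie 1.3.3b. The 1 deposited table has 59263 rows, each with a count and an FPKM value for every library. In genes of 1 exon with at least 50 counts (773 to 865 per library), 100% of the deposited counts equalled FPKM × length × 1 constant per library within 2%, so these deposited values were treated as made from coverage, not as raw reads. The estimated counts were whole numbers as deposited by the authors. Counts and FPKM are therefore not independent. The deposited FPKM values were normalized by the authors for length and library size. The 1089 rows that name no gene, with 0.453% to 0.635% of the counts, were left out. Of 58174 identifiers, 57836 were found in GENCODE release 29, 96.8% of them with the same coordinates.

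Each pair of libraries was scaled by TMM (edgeR 4.0.16, R 4.3.3). The log2 ratio used a prior count of 0.5, over genes that reached an FPKM of 1 in either library of the pair. Called means past 2-fold or 1.5-fold, and intervals are Clopper-Pearson at 95% (scipy 1.17.1). The floor of 3 counts was 0.129 to 0.168 CPM. All 4 libraries were fitted by edgeR's quasi-likelihood test with line and treatment as terms, genes kept by filterByExpr and Benjamini-Hochberg adjustment, and DESeq2 1.42.0 and limma 3.58.1, on log2(FPKM + 1), were alternatives. The edgeR fit and the fold limit were tried on simulated counts. These had larger changes than the members had with radiation and less spread than the real fit. The trial therefore does not show how either performs for changes of the members' size. All members are named, and from each list up to 3 genes by mean absolute change over the lines, genes past 2-fold, snoRNA rows with at least 10 counts, overlapping rows and the 5 nearest profiles. A gene that this rule names is not reported here. The implied transcript length, the stricter background and the median without SNHG3 were added after the data were seen. Sequences are from RefSeq (GRCh38.p14) and GRCh38. The exosomal miRNA data were not analysed here.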

Additional observations from a re-analysis of the deposited data

Results flagged for a closer look

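GAS5 is listed here because its counting intervals lay on opposite sides of 0 in the lines, which was seen in 15.7% of 9991 genes with at least 100 counts in all 4 libraries and in 4 of the 10 other noncoding snoRNA hosts at that depth (SNHG7, SNHG10, SNHG20 and LRRC75A-AS1). GAS5 had a log2 fold change of 0.18 in SW1990 and -0.17 in PANC-1 cells, with both counting intervals on their own side of 0 after TMM scaling. With plain totals the PANC-1 value was -0.08, with an interval of -0.19 to 0.03. SNHG20 is listed because it was past 1.5-fold in opposite directions, with -1.54 in SW1990 and 0.92 in PANC-1 cells. With 1 library per line and treatment, neither difference was tested. SNHG20 overlaps SEC14L1, whose part in its counts was not tested.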

How the results depend on the processing

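Each result was recomputed under the alternatives that apply to it. Of 110 counts and medians of the members and counts of the fits, 105 stayed, a count within 1.5 times, a fit on the same side or a median within a member's counting error, and 5 moved. Within that error the SW1990 median for radiation turned from -0.03 to 0.01 without SNHG3, and the PANC-1 median was -0.10 with plain totals. In PANC-1 cells, 1 member passed 1.5-fold after radiation with plain totals as library sizes (SNHG15) and 1 with DESeq2 size factors (SNHG6), where 0 did otherwise. Between the lines, plain totals moved the members' median log2 difference to 0.55. For radiation, DESeq2's Wald test gave 39 genes and limma on log2(FPKM + 1) 1 gene with an adjusted p under 0.05, in place of 0. In the fits, signs turned for SNHG1 for radiation (limma, 7.73e-05), SNHG15 between the lines (limma, -0.11) and ZFAS1 between the lines (0.14 with plain totals, 0.0078 with DESeq2 and 0.10 with limma), none past the threshold. In the pairs, FPKM values turned SNHG15 between the unirradiated lines, SNHG5 in SW1990, and SNHG1 and SNHG16 in PANC-1 cells, and plain totals turned SNHG5 in SW1990 and SNHG16 in PANC-1 cells. Of 485 values of single genes or of the background, 420 stayed within these limits, some turns of sign in the pairs included, 55 moved, 4 became weaker, 1 became stronger and 5, all in the fits, turned. Without a filter, 40.1% and 41.8% of genes were past 1.5-fold in SW1990 and PANC-1 cells. With 1 library per group no replicate could be left out of a pair, and the fit of 4 libraries would keep no residual degree of freedom. The labels give no replicate numbers, and the fit pairs the treatments within a line. Without the cell line as a block, the fit for radiation gave 0 genes (41 at an unadjusted p under 0.05) and without the treatment as a block, 8392 genes differed between the lines, 5 of them members.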

Other observations

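Some other hosts and partners differed between the lines far more than the members did, and are named after their values were seen. SNHG14, the host of the SNORD116 cluster in the Prader-Willi region, was listed at 0 in both SW1990 libraries and counted 3372 and 2824 times in PANC-1 cells. MEG8, the host of the SNORD113 and SNORD114 clusters, was listed at 0 in SW1990 and counted 2569 and 2938 times in PANC-1 cells. SNHG18 went the other way, with 302 and 247 counts in SW1990 and 0 in both PANC-1 libraries. FBL, the methyltransferase fibrillarin that acts with box C/D snoRNAs, was counted 4302 and 4236 times in SW1990 and 61608 and 51489 times in PANC-1 cells, or at 241 and 248 against 2719 and 2670 FPKM.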
